A study of Mus musculus with 18 samples.

Results

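Hmgcs1, Sqle, Fdft1, Insig1, Srebf2, Dhcr7 and Sc5d are genes of cholesterol synthesis and of its control by sterol regulatory element binding proteins (SREBPs). They form a list of 7 named symbols, drawn up with earlier results of these data known, and all 7 were found among the 13973 genes of the count table. Each was followed over all 18 libraries. In slices of mouse hippocampus and cortex treated with homoharringtonine, a drug that blocks the start of elongation, 5 of them (Sqle, Insig1, Srebf2, Dhcr7 and Sc5d) rose in heavy polysomes by 1.09 to 1.74 on the log2 scale, and the 2 others (Hmgcs1 and Fdft1) fell by 1.00 and 1.22. Of all 13973 genes, 27.1% rose and 24.7% fell there. None of the 7 passed an edgeR test between Fmr1 knockout and wild-type slices under the drug after adjustment. Of all 13973 genes 0% passed there, so Fmr1 itself did not pass either.

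Cells build cholesterol from acetyl-CoA through mevalonate, the isoprenoid farnesyl diphosphate, squalene and lanosterol. Cholesterol in plasma hardly crosses the blood-brain barrier, so the brain makes its own, mostly in oligodendrocytes and astrocytes at the age when myelin forms. Most enzymes after farnesyl diphosphate sit in the membrane of the endoplasmic reticulum, whereas many of those before it are soluble. SREBP-2 is itself made as a precursor in that membrane. When sterols are scarce, its escort SCAP carries it to the Golgi, where a pair of proteases release the part that enters the nucleus and binds sterol regulatory elements in the promoters of these genes. INSIG proteins hold SCAP back when sterols are plentiful.

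Polysome RNA was sequenced from slices of wild-type (WT) and Fmr1 knockout (KO) male C57BL/6N mice at postnatal day 28 to 35. Fmr1 encodes FMRP, an RNA-binding protein lost in fragile X syndrome. The slices were held at 30 °C for 30 min with homoharringtonine (HHT) at 20 µM, or with DMSO as the vehicle. HHT keeps new ribosomes at the beginning of a coding sequence while those already further along can finish and leave, so the study addresses which mRNAs keep ribosomes after initiation is blocked, and whether FMRP matters for this. Each replicate was a pool of 10 slices from 2 to 3 mice, so values of single animals are not seen. The Fmr1 KO line was backcrossed on C57BL/6. Tissue was homogenised without detergent and cleared at 2000 g and 10000 g, and NP-40 was added to 1% only afterwards. Some of the cleared lysate was set aside as input. The rest was spun through a 15 to 45% sucrose gradient, from which a medium and a heavy polysome pool were taken, guided by immunoblots of FMRP. Genotype, treatment and fraction make 12 groups. The 6 HHT groups (WT or KO; input, medium or heavy) have 2 libraries each, and the 6 vehicle groups have 1 library each. Input, medium and heavy of one replicate come from one lysate. Nothing in the labels says that replicates come from separate preparations beyond these pools, so p-values measure the spread between these samples.

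The promoters of Hmgcs1 and Srebf2 are shown because both hold the same sterol element core, while the 2 mRNAs moved in opposite directions in heavy polysomes. The windows cover the 250 bases before the RefSeq start of each gene (build GRCm38.p6, chr13:119690101-119690350 and chr15:82147019-82147268, both on the plus strand). Capitals mark matches to TCACNCCA, searched on both strands.
Hmgcs1: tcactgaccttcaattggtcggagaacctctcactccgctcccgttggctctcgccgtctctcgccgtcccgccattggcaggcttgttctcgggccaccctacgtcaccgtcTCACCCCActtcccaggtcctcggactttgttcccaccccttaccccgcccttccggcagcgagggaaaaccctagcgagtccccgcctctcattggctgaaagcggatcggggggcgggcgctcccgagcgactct
Srebf2: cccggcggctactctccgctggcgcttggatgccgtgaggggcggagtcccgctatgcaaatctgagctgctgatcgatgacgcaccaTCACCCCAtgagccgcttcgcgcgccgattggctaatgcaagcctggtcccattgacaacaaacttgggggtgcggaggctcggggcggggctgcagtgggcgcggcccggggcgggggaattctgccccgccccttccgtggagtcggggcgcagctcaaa
The match is TCACCCCA in both, with its first base at position -137 from the start in Hmgcs1 and -162 in Srebf2. Of the 7 genes, 5 had RefSeq windows, and TCACNCCA was not found in those of Insig1, Sc5d and Dhcr7. It occurs in 3.67% of 32851 RefSeq promoter windows of this length. Both printed windows also hold CCAAT, the box of the factor NF-Y, and GGGCGG, the box of Sp1, factors that work beside SREBPs. These are common letters, found in 33.8% and 32.7% of all windows, and no match of one motif overlapped another in these windows. A match is a run of letters and was not tested for binding.

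Libraries held 6226237 to 13834652 estimated counts. The lowest count of any of the 7 genes was 45.4, for Sc5d in WT vehicle heavy. Levels below are CPM (counts scaled to a common library size) after TMM scaling, which are shares of the RNA in a fraction and not amounts, since each library was made from 200 ng RNA. In whole tissue, fewer cells of a type and less RNA per cell cannot be told apart. Fmr1 was lower in every KO library (4.62 to 8.53 CPM) than in every WT library (13.9 to 32.2 CPM). The deposited tables are named for a pair of batches, and the labels do not say which libraries form them. The lowest value of the authors' length-scaled table was 0.772 to 0.904 in the 6 HHT replicate 2 libraries and 1.00 to 1.04 in the other 12, so HHT effects are also given for each HHT replicate number alone. All 36 markers of 8 cell type and region lists were detected in every library. In input, the summed CPM of 6 neuron markers was 6893 to 7389 in vehicle and 8394 to 9260 in HHT libraries, that of 6 oligodendrocyte markers 3100 to 3314 and 3585 to 4177, and that of 6 astrocyte markers 949 to 991 and 1103 to 1447. Less abundant lists differed by more in input. The sum was 12.2 to 13.3 in vehicle and 31.6 to 39.5 in HHT for 4 vessel markers, 23.3 to 28.2 and 51.6 to 84.2 for 2 oligodendrocyte precursor markers, 80.7 to 129 and 172 to 284 for 2 choroid plexus markers, 47.0 to 72.2 and 85.8 to 109 for 6 microglia markers, and 258 to 285 and 311 to 455 for 4 hippocampus and cortex markers. In heavy polysomes the astrocyte sum was 1661 to 1952 in vehicle and 612 to 791 in HHT libraries, although 3 of its 6 markers were called higher and 3 lower. The summed oligodendrocyte markers there were 3167 to 3228 and 3382 to 3768. A sum is carried by its most abundant markers. In input the median log2 change was -0.23 for the hippocampus and cortex markers, with 1 of 4 called higher. It was -0.03 for the neuron markers, with 2 of 6 called higher. For the other lists the median was 0.25 (oligodendrocytes), 0.42 (astrocytes), 0.63 (microglia), 1.17 (choroid plexus), 1.44 (oligodendrocyte precursors) and 1.54 (vessels). The part of cell types in the results was not tested.

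Between genes, levels were compared only per transcript length, in the authors' rescaled TPM. Hmgcs1 had the highest median over the 18 libraries, 280.1, with a range of 185 to 502. Srebf2 followed at 134 (77.3 to 269), then Fdft1 at 99.3 (81.4 to 172) and Sqle at 91.9 (33.1 to 173). Insig1 stood at 69.8 (21.6 to 90.7), Sc5d at 45.5 (9.44 to 70.7) and Dhcr7 at 44.2 (12.6 to 71.0). The ranges of all neighbours in this order overlapped, and the order depended on the group. In vehicle heavy polysomes the mean was 164 for Fdft1, 101 for Srebf2 and 38.8 for Sqle. In HHT heavy polysomes Fdft1, at 83.1, was below Sqle at 151 and Srebf2 at 254. In CPM, Fdft1 varied least over the libraries, with its highest library 2.55 times its lowest, and Sc5d varied most, 6.31 times.

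**Figure D1:**
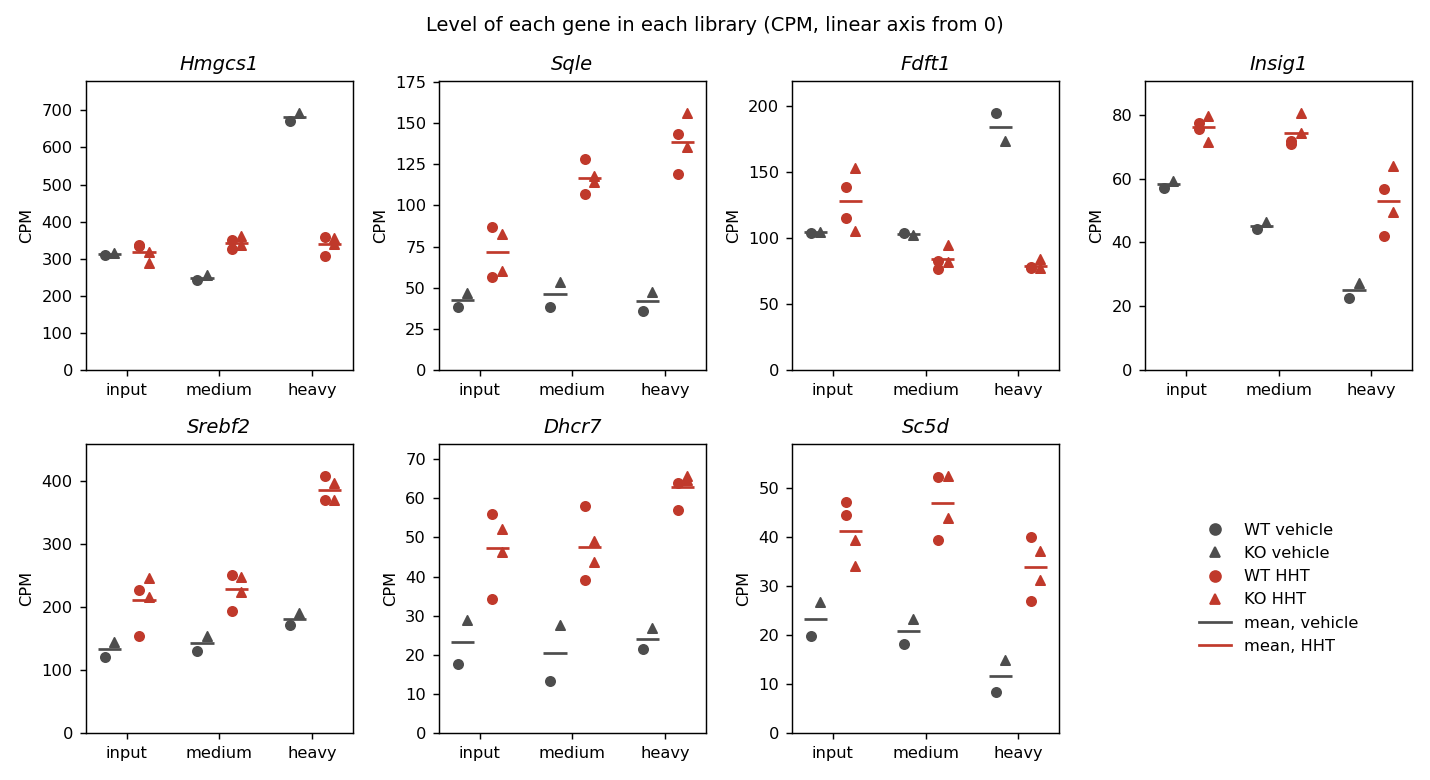
Level of each gene in every library, in CPM on a linear axis from 0, by fraction. Circles are WT and triangles KO libraries, grey is vehicle, red is HHT, and a line marks the mean of a treatment over both genotypes. In heavy polysomes Hmgcs1 and Fdft1 are highest in vehicle, and the other 5 genes are highest in HHT.

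HHT was compared with vehicle within each fraction, with the genotypes weighted equally (4 libraries against 2). In input, 4 of the 7 genes rose (Sqle, Srebf2, Dhcr7 and Sc5d) and 0 fell, where 12.4% of all 13973 genes were called, 12.2% as higher. In medium polysomes, 6 rose and 0 fell, where 47% of all genes were called, 25.4% as higher and 21.5% as lower. In heavy polysomes all 7 were called, 5 as higher and 2 as lower, where 51.8% of all genes were called, 27.1% as higher and 24.7% as lower. The median log2 change of the 7 genes was 0.67 in input, 0.71 in medium and 1.10 in heavy, beside -0.0023, 0.026 and 0.057 for all genes. Which direction was the commoner one over all genes depended on the scaling, with 2987 higher and 3728 lower in medium with library totals, and 3210 higher and 4079 lower in heavy with RLE factors. The vehicle groups have 1 library each and are assumed to vary like the HHT groups.

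Hmgcs1 encodes the cytosolic HMG-CoA synthase, an early enzyme of the mevalonate pathway. In input its level was 317 and 289.7 CPM in the KO HHT libraries, 334 and 336 in the WT HHT libraries, and 315 (KO) and 310.5 (WT) in vehicle. The HHT libraries thus lay on both sides of the vehicle libraries, with a log2 change of 0.03 ± 0.11 (SE; edgeR adjusted p = 0.949), which was -0.025 with RLE size factors and -0.076 with library totals in place of TMM scaling. In medium polysomes all 4 HHT libraries (326 to 361 CPM) were above the vehicle libraries (255 in KO and 243 in WT). The log2 change there was 0.47 ± 0.11 (edgeR adjusted p = 0.00343). In heavy polysomes the order turned over. Vehicle libraries held 692 CPM in KO and 670.0 in WT, and HHT libraries 339.5 and 356 in KO and 309 and 358 in WT. This was a 2.00-fold fall (log2 change -1.00 ± 0.10, edgeR adjusted p = 8.56e-06).

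Fdft1 encodes squalene synthase, which joins a pair of farnesyl diphosphates in the first step committed to sterols. Its input levels were 106 and 153 CPM in KO HHT, 115 and 139 in WT HHT, 105 in KO vehicle and 104 in WT vehicle. All 4 HHT libraries were above vehicle, but their spread was wide, and the log2 change of 0.29 ± 0.15 did not pass (edgeR adjusted p = 0.287). With HHT replicate 2 alone it was 0.46 and passed (adjusted p = 0.00635), and with replicate 1 alone it was 0.08 (adjusted p = 0.568); over all alternatives adjusted p ran from 0.00635 to 0.676. In medium polysomes the HHT libraries (76.6 to 94.8 CPM) were below both vehicle libraries (102 and 104). The log2 change of -0.30 ± 0.15 did not pass there (edgeR adjusted p = 0.116) but did with HHT replicate 1 alone (-0.38, adjusted p = 0.00152; range over the alternatives 0.00152 to 0.239). In heavy polysomes Fdft1 stood at 174 CPM in KO vehicle and 195 in WT vehicle, and at 77.3 and 84.3 in KO HHT and 78.2 and 77.3 in WT HHT. The HHT libraries lay close together and far below vehicle, a 2.32-fold fall (log2 change -1.22 ± 0.14, edgeR adjusted p = 1.82e-05). The annotated 3′ end of Fdft1 shares 774 bases with Ctsb on the other strand, and the antisense gene Gm48342 lies over 6190 bases of the Hmgcs1 gene. For both, nothing here states whether the counting used strand.

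Sqle encodes squalene epoxidase, the next enzyme after squalene synthase and a second control point of the pathway. Its level was 46.8 (KO) and 38.6 (WT) CPM in vehicle input, and 82.7, 60.0, 86.8 and 56.7 CPM in the HHT input libraries (KO 1, KO 2, WT 1, WT 2). Every HHT library was above both vehicle libraries, with replicate 1 of both genotypes above replicate 2. The log2 change was 0.76 ± 0.19 (edgeR adjusted p = 0.0151), and 0.99 with HHT replicate 1 alone but 0.43 with replicate 2 alone. The call was lost without WT HHT replicate 1 (0.58, adjusted p = 0.0565) or KO HHT replicate 1 (0.60, adjusted p = 0.0925), in a range of adjusted p from 1.79e-06 to 0.103. In medium polysomes Sqle was at 53.5 and 38.7 CPM in vehicle (KO, WT) and at 107 to 128 in HHT, a log2 change of 1.36 ± 0.19 (edgeR adjusted p = 0.000165). In heavy polysomes it was at 47.5 and 36.0 CPM in vehicle and at 156, 135, 143 and 119 in HHT. That was a 3.34-fold rise (log2 change 1.74 ± 0.20, edgeR adjusted p = 1.41e-05), the largest among the 7 genes.

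Sc5d and Dhcr7 act late, Sc5d putting in the C5 double bond of the sterol ring and Dhcr7 reducing 7-dehydrocholesterol to cholesterol. Sc5d was at 26.7 (KO) and 19.7 (WT) CPM in vehicle input and at 39.2, 34.1, 44.4 and 47.1 in the HHT libraries. The rise of 0.83 ± 0.18 passed (edgeR adjusted p = 0.00817), though not without KO HHT replicate 1 (0.75, adjusted p = 0.0519; range over the alternatives 0.000139 to 0.0519). It rose by 1.19 ± 0.19 in medium polysomes (edgeR adjusted p = 0.00032), where vehicle libraries held 23.2 and 18.2 CPM and HHT libraries 39.4 to 52.4. In heavy polysomes Sc5d was at its lowest in vehicle, 14.8 CPM in KO and 8.31 in WT, against 37.0 and 31.2 in KO HHT and 40.0 and 26.9 in WT HHT. No HHT library came near the vehicle levels, and the fold change was 3.04 (log2 change 1.60 ± 0.21, edgeR adjusted p = 3.9e-05).

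Dhcr7 was at 28.9 CPM in KO vehicle and 17.7 in WT vehicle input, and at 52.2 and 46.3 in KO HHT and 56.1 and 34.3 in WT HHT. The lowest HHT library, WT replicate 2, was still above both vehicle libraries, and the change of 1.07 ± 0.21 was the largest of the 7 in input (edgeR adjusted p = 0.00403). In medium polysomes Dhcr7 stood at 27.6 (KO) and 13.2 (WT) CPM in vehicle and at 39.0 to 58.1 in HHT, a log2 change of 1.31 ± 0.21 (edgeR adjusted p = 0.000365). In heavy polysomes the 4 HHT libraries were close together, at 57.0 to 65.8 CPM, above 26.8 and 21.4 in vehicle. The log2 change there was 1.39 ± 0.21 (edgeR adjusted p = 0.000113).

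Insig1 encodes a membrane protein that keeps the SCAP and SREBP complex in the endoplasmic reticulum, and is itself an SREBP target. In input all 4 HHT libraries (71.5 to 79.7 CPM) were above vehicle (59.4 in KO, 57.1 in WT). The log2 change of 0.39 ± 0.14 did not pass (edgeR adjusted p = 0.116), but did with HHT replicate 1 alone (0.43, adjusted p = 0.000837; range over the alternatives 0.000837 to 0.295). In medium polysomes Insig1 rose by 0.71 ± 0.15 (edgeR adjusted p = 0.00165), from 46.5 and 44.1 CPM to 70.7 to 80.5. In heavy polysomes vehicle libraries held 27.2 (KO) and 22.7 (WT) CPM, and HHT libraries 64.0, 49.6, 56.8 and 41.9. The groups were apart, with replicate 1 again above replicate 2 in both genotypes, and the rise was 1.09 ± 0.16 (edgeR adjusted p = 8.14e-05).

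Srebf2 encodes the SREBP-2 precursor, the main transcription factor of cholesterol synthesis. Its input level was 144 (KO) and 121 (WT) CPM in vehicle and 246, 216, 228 and 154 in HHT. WT HHT replicate 2 was nearest to vehicle. The log2 change was 0.67 ± 0.16 (edgeR adjusted p = 0.0126), and it was lost without KO HHT replicate 1 (0.59, adjusted p = 0.0762; range over the alternatives 8.37e-07 to 0.0925). In medium polysomes Srebf2 rose by 0.69 ± 0.16 (edgeR adjusted p = 0.00334), from 154 and 131 CPM to 194 to 250.1. In heavy polysomes it was at 191 and 171 CPM in vehicle and at 370.4, 397, 408 and 369.8 in HHT. The HHT libraries differed little from each other, and the rise was 1.10 ± 0.16 (edgeR adjusted p = 8.77e-05). The gene for the microRNA Mir33 lies within Srebf2 and on its strand, as does the annotated gene Gm49502, which covers 2110 bases.

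With HHT replicate 1 alone, the heavy polysome changes were -1.07 for Hmgcs1, 1.84 for Sqle, -1.24 for Fdft1, 1.27 for Insig1, 1.11 for Srebf2, 1.42 for Dhcr7 and 1.71 for Sc5d on the log2 scale. With replicate 2 alone they were -0.95, 1.60, -1.21, 0.85, 1.07, 1.33 and 1.30 in that order. Direction and call were the same for all 7 genes with either number. They also stayed the same for every called gene in medium and heavy polysomes under each of the 13 alternatives tried. In that gene order, HHT replicate 1 alone gave 0.06, 0.99, 0.08, 0.43, 0.84, 1.21 and 0.84 in input. Replicate 2 alone gave -0.03, 0.43, 0.46, 0.31, 0.45, 0.77 and 0.77 there. In medium polysomes the changes were 0.41, 1.43, -0.38, 0.75, 0.81, 1.41 and 1.34 with replicate 1 alone. With replicate 2 alone they were 0.50, 1.27, -0.23, 0.67, 0.54, 1.05 and 1.00.

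**Figure D2:**
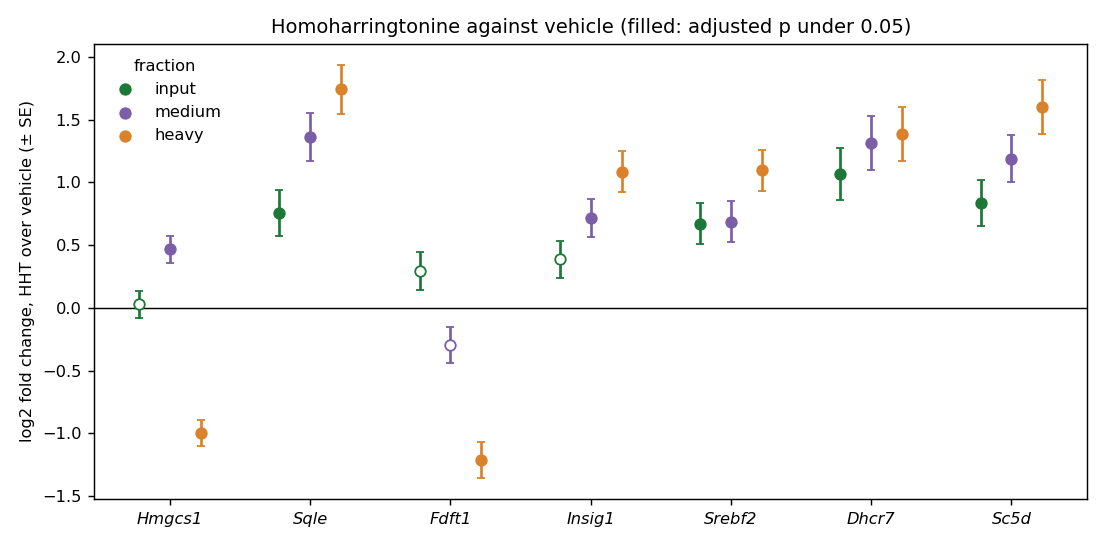
Log2 change of each gene under HHT against vehicle (y axis, ± SE) in input, medium and heavy polysomes, from the edgeR fit of all 18 libraries. Filled points have an adjusted p under 0.05. Hmgcs1 goes from 0.03 in input to 0.47 in medium and -1.00 in heavy, and Fdft1 from 0.29 to -0.30 and -1.22, whereas the other 5 genes are above 0 in all fractions.

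The fractions of one lysate were then set against each other. In vehicle slices, heavy over input was called for 4 of the 7 genes, where 46.5% of all genes were called, 24.8% as higher and 21.7% as lower. Hmgcs1 was richer in heavy polysomes than in input by 1.13 (KO) and 1.11 (WT) on the log2 scale in the single lysates. The fitted ratio was 1.12 ± 0.12 (edgeR adjusted p = 4.32e-05). Fdft1 was richer by 0.72 and 0.91, with a fitted ratio of 0.82 ± 0.17 (edgeR adjusted p = 0.00165). This call was lost with library totals in place of TMM scaling (0.43, adjusted p = 0.0524; range 1.7e-07 to 0.0524), a scaling that moved the median ratio of all genes from -0.02 to -0.41. Insig1 was poorer in heavy polysomes, at -1.12 and -1.32 in the KO and WT lysates, and its fitted ratio was -1.23 ± 0.18 (edgeR adjusted p = 0.000134). Sc5d was poorer too, at -0.84 and -1.23, with -1.05 ± 0.24 as the fitted ratio (edgeR adjusted p = 0.00259). Srebf2 was at 0.45 ± 0.18 (edgeR adjusted p = 0.0543), and passed with the lysate as a block (adjusted p = 0.00888; range over the alternatives 0.000585 to 0.762). Sqle (-0.04, and 0.05 with RLE factors) and Dhcr7 (0.08, and -0.30 with library totals) did not pass. Medium over input in vehicle was called for 0 of the 7, where 19.7% of all genes were called, 10.2% as higher and 9.5% as lower. Without adjustment 2 of the 7 and 4719 of all genes were under 0.05. Hmgcs1, at -0.33 ± 0.12 (edgeR adjusted p = 0.0777), passed with the lysate block (adjusted p = 0.0414; range 0.00331 to 0.123). Heavy over medium in vehicle was called for the same 4 genes as heavy over input, where 54% of all genes were called, 25.9% as higher and 28.1% as lower. Of the 4, Hmgcs1 was at 1.45 ± 0.13, Fdft1 at 0.83 ± 0.17, Insig1 at -0.86 ± 0.18 and Sc5d at -0.89 ± 0.24. Srebf2, at 0.35 ± 0.18 (edgeR adjusted p = 0.12), passed with the lysate block (adjusted p = 0.0302; range 0.00472 to 0.945).

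In HHT slices, heavy over input was called for 5 of the 7 genes, where 58% of all genes were called, 27.6% as higher and 30.4% as lower. The ratio of Hmgcs1 was 0.10 and 0.30 in the KO lysates and -0.11 and 0.09 in the WT lysates, with 0.09 ± 0.09 as the fitted value (edgeR adjusted p = 0.372; -0.15 with library totals). Fdft1 was poorer in heavy polysomes in all 4 lysates (-0.45 and -0.86 in KO, -0.56 and -0.84 in WT), at -0.69 ± 0.12 (edgeR adjusted p = 0.000306). Sqle was richer in each lysate (0.91, 1.17, 0.72 and 1.07), with 0.95 ± 0.14 as the fitted ratio (edgeR adjusted p = 0.000112). Srebf2 was richer as well (0.59, 0.88, 0.84 and 1.26; fitted 0.88 ± 0.13, edgeR adjusted p = 7.35e-05). Insig1 stayed poorer in heavy polysomes (-0.32, -0.52, -0.45 and -0.85; fitted -0.53 ± 0.12, edgeR adjusted p = 0.00177). Both regulators of the set thus lay on opposite sides of 0. Dhcr7 was richer at 0.40 ± 0.16 (edgeR adjusted p = 0.0389), a call that depended on the setting. It was lost without WT HHT replicate 2 (0.29, adjusted p = 0.085), KO HHT replicate 1 (0.44, adjusted p = 0.0993) or KO HHT replicate 2 (0.37, adjusted p = 0.192), with HHT replicate 1 alone (0.25, adjusted p = 0.255), and with library totals (0.17, adjusted p = 0.344; range 0.00275 to 0.344). Sc5d, at -0.28 ± 0.14 (edgeR adjusted p = 0.107), passed with the lysate block (-0.29, adjusted p = 0.0418; range 0.00549 to 0.516).

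Medium over input in HHT slices was called for 2 of the 7 genes, where 30.4% of all genes were called, 13.4% as higher and 17% as lower. Sqle was richer in medium polysomes by 0.70 ± 0.14 (edgeR adjusted p = 0.00306), a call lost without KO HHT replicate 2 (0.61, adjusted p = 0.0586; range 9.18e-06 to 0.0586). Fdft1 was poorer, at -0.61 ± 0.12 (edgeR adjusted p = 0.00257). Heavy over medium was called for 3 of the 7, where 35.8% of all genes were called, 19% as higher and 16.8% as lower. Srebf2 was at 0.76 ± 0.13 (edgeR adjusted p = 0.000505), Insig1 at -0.49 ± 0.12 (edgeR adjusted p = 0.00538) and Sc5d at -0.48 ± 0.14 (edgeR adjusted p = 0.0189). Without WT HHT replicate 2 or KO HHT replicate 2, Srebf2 alone was left, with Insig1 at -0.39 and -0.43 (adjusted p = 0.0775 and 0.0649; range 0.000161 to 0.0775). Sc5d was then at -0.44 and -0.48 (adjusted p = 0.0651 and 0.101; range 0.00229 to 0.101), and without KO HHT replicate 1 it missed the threshold as well (-0.48, adjusted p = 0.0779). Dhcr7, at 0.40 ± 0.16 (edgeR adjusted p = 0.0587), passed with the lysate block (0.42, adjusted p = 0.00556; range 0.00556 to 0.307).

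The difference between these ratios, HHT minus vehicle, was tested directly as a shift. The heavy over input shift was called for 4 of the 7 genes, where 28.9% of all genes were called, 12.6% as higher and 16.3% as lower. It was -1.51 ± 0.21 for Fdft1 (edgeR adjusted p = 0.000323) and -1.03 ± 0.15 for Hmgcs1 (edgeR adjusted p = 0.000443). It was 0.99 ± 0.26 for Sqle (edgeR adjusted p = 0.0124) and 0.70 ± 0.21 for Insig1 (edgeR adjusted p = 0.0242). The shift of Insig1 missed the threshold without WT HHT replicate 1 (0.60, adjusted p = 0.0707) or KO HHT replicate 1 (0.66, adjusted p = 0.0587; range 0.000106 to 0.0707). Sc5d was at 0.77 ± 0.28 (edgeR adjusted p = 0.052) and Srebf2 at 0.42 ± 0.22 (edgeR adjusted p = 0.17), and both passed with the lysate block (adjusted p = 0.0192, range 0.00809 to 0.176, and 0.0412, range 0.00301 to 0.373). Dhcr7, which rose in all 3 fractions, shifted by 0.32 ± 0.29 (edgeR adjusted p = 0.443). The heavy over medium shift was called for 2 of the 7, where 36.5% of all genes were called, 18.1% as higher and 18.4% as lower. It was -1.47 ± 0.15 for Hmgcs1 (edgeR adjusted p = 2.37e-05) and -0.92 ± 0.21 for Fdft1 (edgeR adjusted p = 0.00456). Srebf2, at 0.41 ± 0.22 (edgeR adjusted p = 0.165), passed with the lysate block (0.42, adjusted p = 0.044; range 0.00893 to 0.34). The medium over input shift was called for 0 of the 7, where 17.3% of all genes were called, 7.09% as higher and 10.2% as lower. Of these shifts, 3 of the 7 and 4250 of all genes were under 0.05 without adjustment. With the lysate block 3 passed, Hmgcs1 (0.44, adjusted p = 0.0306; range 0.00759 to 0.231), Sqle (0.63, adjusted p = 0.0196; range 0.00113 to 0.304) and Fdft1 (-0.58, adjusted p = 0.0183; range 0.00231 to 0.176).

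**Figure D3:**
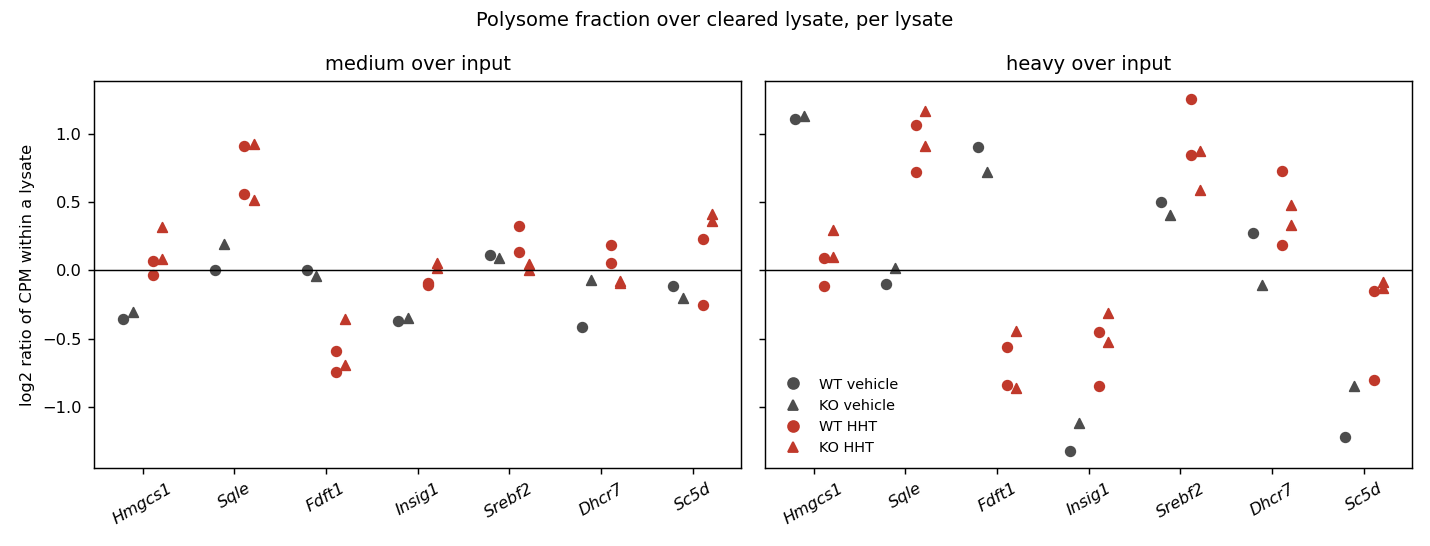
Log2 ratio of CPM of a polysome fraction over input within each lysate (y axis), for medium (left) and heavy polysomes (right). Circles are WT and triangles KO lysates, grey is vehicle and red is HHT. For heavy over input, the 2 vehicle lysates of Hmgcs1 (1.13 and 1.11) and Fdft1 (0.72 and 0.91) are above all 4 HHT lysates. Those of Sqle, Insig1, Sc5d and Srebf2 are below all 4 HHT lysates. The share of all genes that part in this way was not counted.

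KO and WT were compared under HHT, where each group has 2 libraries, in each fraction. None of the 7 genes was called in any fraction, where 0% of all genes were called by edgeR. Fmr1 itself was thus not called, at 8.53 and 5.07 CPM in KO HHT and 22.4 and 32.2 CPM in WT HHT input. Without adjustment 0 of the 7 genes was under 0.05 in any fraction, with 679, 387 and 412 of all genes under it in input, medium and heavy. DESeq2 called 4, 2 and 1 of all genes, none of them among the 7. In input the log2 difference, KO minus WT, ran from -0.32 ± 0.20 for Sc5d to 0.27 ± 0.18 for Srebf2. In medium polysomes it ran from -0.06 ± 0.22 for Dhcr7 to 0.15 ± 0.17 for Fdft1, and in heavy polysomes from -0.02 ± 0.18 for Srebf2 to 0.21 ± 0.17 for Insig1. Hmgcs1, the gene with the smallest errors, was at -0.14 ± 0.12, 0.04 ± 0.12 and 0.06 ± 0.12. These values do not show that the genotypes were alike, only that no difference was detectable with 2 libraries a group.

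In vehicle there is 1 KO and 1 WT library per fraction, so values are given with no test. All 7 genes were higher in the KO than in the WT input library, from 105 against 104 CPM for Fdft1 to 28.9 against 17.7 CPM for Dhcr7. The median log2 difference of all genes between these libraries, KO minus WT, was also above 0, at 0.014. Fdft1 (0.016) and Hmgcs1 (0.022) lay close to that median, and the others ran from 0.057 (Insig1) to 0.71 (Dhcr7). Dhcr7 was also further from WT in medium polysomes (27.6 against 13.2 CPM), but closer in heavy (26.8 against 21.4 CPM). Sc5d was at 14.8 CPM in the KO and 8.31 CPM in the WT heavy library. Fdft1 was the only one of the 7 with the KO library lower, in medium (102 against 104 CPM) and heavy polysomes (174 against 195 CPM). For these polysome libraries the all-gene median of KO minus WT was 0.0079 (medium) and 0.030 (heavy). The interaction of genotype and treatment was called for 0 of the 7 and 0% of all genes in each fraction. Without adjustment, 214, 187 and 104 of all genes were under 0.05 in input, medium and heavy. Among the 7, Dhcr7 in medium polysomes was under it, where the HHT change in KO minus that in WT was -1.12 ± 0.42 (edgeR adjusted p = 0.999). This rests on 1 vehicle library of each genotype.

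**Figure D4:**
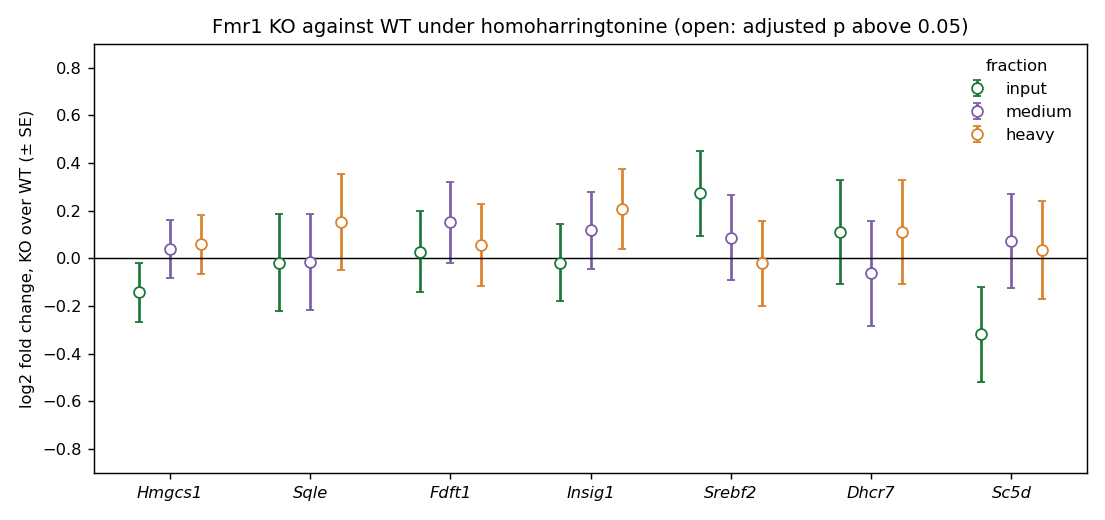
Log2 difference of each gene between KO and WT slices under HHT (y axis, ± SE) in input, medium and heavy polysomes, from the edgeR fit. All points are open because no adjusted p was under 0.05. They lie between -0.32 and 0.27.

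The other genes of the pathway were taken from fixed lists. Of 15 other sterol synthesis genes, all measured, 4 rose and 0 fell under HHT in input, 3 rose and 3 fell in medium polysomes, and 4 rose and 6 fell in heavy polysomes. Over all genes the shares that rose were 12.2%, 25.4% and 27.1% in that order and the shares that fell 0.215%, 21.5% and 24.7%, so the 3 and 3 in medium and the 4 that rose in heavy are near the share over all genes. The median log2 changes of the 15 were 0.095, 0.12 and -0.21, beside -0.0023, 0.026 and 0.057 for all genes. In heavy polysomes the 4 with the smallest adjusted p all fell (edgeR adjusted p at most 0.000106). Fdps, which makes farnesyl diphosphate, fell by 1.38 ± 0.16 on the log2 scale, Acat2, the thiolase before Hmgcs1, by 1.05 ± 0.13, Nsdhl, a sterol dehydrogenase that acts in removing the C4 methyl groups, by 1.17 ± 0.17, and Mvd, mevalonate diphosphate decarboxylase, by 0.90 ± 0.14. In input, Cyp51, the lanosterol demethylase, rose by 1.28 ± 0.18, Msmo1, the sterol methyl oxidase, by 0.91 ± 0.14, Tm7sf2, a sterol C14 reductase, by 1.06 ± 0.25, and Ebp, the sterol isomerase, by 0.95 ± 0.23. In medium polysomes, Cyp51 (1.80 ± 0.19) and Msmo1 (1.05 ± 0.15) rose, Pmvk, phosphomevalonate kinase, fell by 1.21 ± 0.17, and Mvk, mevalonate kinase, fell by 0.63 ± 0.15.

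**Figure D5:**
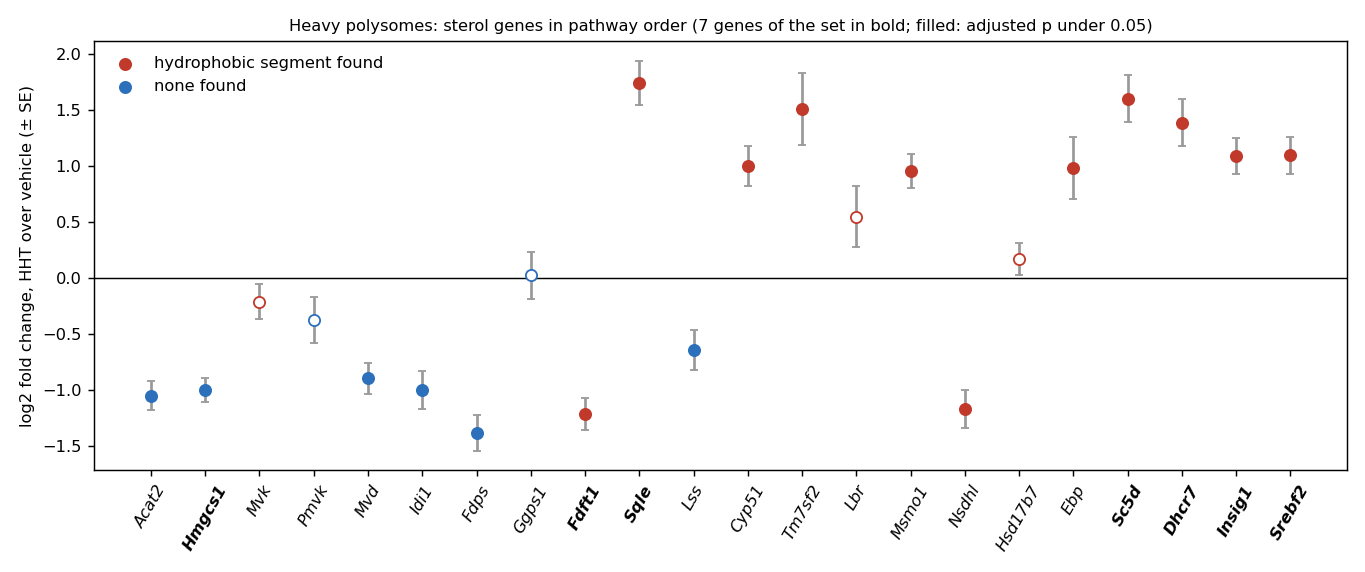
Log2 change under HHT against vehicle in heavy polysomes (y axis, ± SE) for 22 sterol genes, enzymes in pathway order from left to right followed by Insig1 and Srebf2, with the 7 genes of the set in bold. Filled points have an adjusted p under 0.05, and red marks a protein with a hydrophobic segment, blue one without. Among filled points, Hmgcs1 and Fdft1 lie with those at or below -0.64, and the 5 others with those at or above 0.95.

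Of 7 genes of SREBP processing and sterol uptake, 6 rose and 0 fell in input, 4 rose and 1 fell in medium, and 6 rose and 0 fell in heavy polysomes, with median log2 changes of 0.64, 0.53 and 0.98. Over all genes 12.2%, 25.4% and 27.1% rose, with medians of -0.0023, 0.026 and 0.057. In heavy polysomes Scap, the SREBP escort, rose by 2.07 ± 0.27, Mbtps1, the site-1 protease, by 1.35 ± 0.16, Insig2, the relative of Insig1, by 0.98 ± 0.19 and Srebf1, which encodes the SREBP-1 precursor, by 0.76 ± 0.15. In input Scap (1.09 ± 0.26), Mbtps2, the site-2 protease (0.93 ± 0.20), Npc2, a cholesterol carrier of the lysosome (0.74 ± 0.19), and Insig2 (0.64 ± 0.16) rose. In KO against WT under HHT, none of the genes of these lists was called in any fraction, where 0% of all genes were called.

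The proteins of the set differ in whether and where they carry a hydrophobic segment, taken here as a window of 19 residues with a mean Kyte-Doolittle value of at least 1.6 in the longest GENCODE M21 coding sequence. Hmgcs1 (520 residues) has none. Sqle (572 residues) has 5, the first at residues 27 to 45, and Sc5d (299 residues) has 3, the first at 32 to 50. Dhcr7 (474 residues) has 1, at 31 to 49, and Insig1 (259 residues) 2, the first at 71 to 89. Srebf2 (1130 residues) has 2, starting at residue 461, in the middle of the protein. Fdft1 (416 residues) has 1, late in the protein, at 285 to 303, which leaves 113 residues after it. The pair that fell in heavy polysomes holds the protein without a segment and one with a single segment.

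Over the 7 genes and the 15 other sterol genes together, 14 had a segment and 8 had none. A run of windows past the cutoff counts as 1 segment and a stretch below it as none. The number and places of segments thus need not be those of membrane passes. The split is also not one of membrane and soluble proteins. Mvk, an enzyme before farnesyl diphosphate, had a segment with its highest window right at the cutoff of 1.6. Lss, an enzyme after it, had none, with a highest window of 1.542. With a segment, 8 rose and 0 fell in input, 8 rose and 1 fell in medium, and 9 rose and 2 fell in heavy polysomes under HHT. The 2 that fell were Fdft1 and Nsdhl, whose only segment starts at residue 291. Whether the place of a segment bears on the change was not tested. Msmo1 has its only segment at residues 189 to 207, with 86 residues after it, and rose by 0.95. Hsd17b7, with its only segment at 232 to 250 and 112 residues after it, was at 0.17 and did not pass (edgeR adjusted p = 0.356), and Srebf2, whose first segment starts at 461, rose. Without a segment, 0 rose and 0 fell in input, 1 (Hmgcs1) rose and 2 fell in medium, and 0 rose and 6 fell in heavy polysomes. Their median log2 change in heavy polysomes was -0.95, beside 0.99 with a segment. Over all genes with a coding sequence, the shares went the same way. Of 4733 genes with a segment, 31.9% rose in input, 49.1% in medium and 53.1% in heavy polysomes, and of 8315 without one, 1.55%, 13.1% and 12.7% did. With a segment 0.127%, 7.73% and 11% fell, and without one 0.253%, 30.2% and 34.1%. Several sterol counts are near the share over all genes of that kind. With a segment these include the 8 of 14 that rose and the 1 that fell in medium, and the 9 and 2 in heavy polysomes. Without a segment they include the 1 of 8 that rose and the 2 that fell in medium, and the 0 called in input. The sterol genes were not tested against these shares. Whether the late addition of detergent, after the spins, bears on these values was not tested.

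The genes lie apart on the genome. In mm10 they are at chr13:119690379-119708260 (Hmgcs1), chr15:59315077-59331192 (Sqle), chr14:63145150-63179578 (Fdft1), chr5:28071363-28078662 (Insig1), chr15:82147181-82205379 (Srebf2), chr7:143823145-143848410 (Dhcr7) and chr9:42251595-42264256 (Sc5d). Fdft1 and Sc5d are on the minus strand. Over the 18 libraries, log2 CPM of Insig1 and Sc5d went together (Pearson r = 0.92), as did Sqle with Dhcr7 (r = 0.90) and Srebf2 (r = 0.87), and Dhcr7 with Srebf2 (r = 0.88). Hmgcs1 went with Fdft1 (r = 0.56) and against Insig1 (r = -0.65). These libraries share treatment and fraction, so r is a description.

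Among 10780 genes with a mean of at least 5 CPM, the 3 most like each gene over the 18 libraries were found by Pearson r of log2 CPM. For Hmgcs1 they were Acad11 (0.98), Dpysl3 (0.97) and Abat (0.97), and for Fdft1 Fbl, Atp5b and Sars (0.98 each). For Sqle they were Paqr8, Wbscr17 and Ephb6 (0.99 each), and for Srebf2 Ptprs (0.99), Pcnxl2 (0.99) and Plxnb1 (0.99). For Dhcr7 they were Syvn1, Tmem132a and Cx3cl1 (0.98 each). For Insig1 they were M6pr, Agpat5 and Fxyd6 (0.97 each), and for Sc5d Fam3c (0.98), Sdf4 (0.98) and Dnajb11 (0.97).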

How the data were processed

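RNA of cleared lysate (input) and of medium and heavy polysome pools was sequenced in 18 libraries after a directional library kit, 12 PCR cycles and NextSeq sequencing, per the labels' protocols. Build mm10 and the tools RSEM 1.2.11, DESeq2 1.16.1, Bowtie2 2.1.0 and Trimmomatic 0.32 are listed in the submitters' processing notes, which do not state what each was used for. The deposited count table holds estimated counts for 13973 genes, and 0 of 251514 values are whole within 1e-06. The second deposited table, which the authors call TPM, was treated as a score (rescaled TPM), since 10 of its 18 columns sum to more than TPM allows. Nothing here states how the genes were selected or whether batch effects were removed. Removal would make the spread between replicates too small.

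Rounded counts of the 18 libraries were modelled as 12 group means by the quasi-likelihood F-test of edgeR 4.0.16 (R 4.3.3) after TMM scaling and filterByExpr, which kept all 13973 genes, leaving 6 residual degrees of freedom, beside 7.36 prior ones. Benjamini-Hochberg adjustment ran over all genes within each of 18 comparisons at 0.05, and tests are 2-sided. HHT, ratio and shift comparisons weigh genotypes equally, and those of one fraction share libraries. Alternatives were DESeq2 1.42.0, RLE factors, library totals, no filter, limma 3.58.1 on log2(rescaled TPM + 1) or + 0.1, each HHT lysate left out, HHT replicate 1 or 2 alone, and a block for the replicate number or, between fractions, for the lysate. Fractions of one lysate come from the same animals and so are paired, which the fit of 12 group means leaves out. Deviations of HHT replicates correlated between fractions of a lysate at r = 0.01 to 0.35. The fit was run on simulated data for HHT against vehicle in input only, drawn without pairing of fractions or batches. The other comparisons were not simulated.

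The 7 genes, the related lists (sterol synthesis, SREBP processing and uptake, sterol export and turnover, fatty acid genes) and 8 marker lists were chosen with earlier results of these data known. A few genes of the related lists are not reported here and were left out of the list counts. From a related list at most 4 genes per comparison are named, those with the smallest adjusted p, and per gene of the set the 3 with the highest Pearson r of log2 CPM (prior count 2). Apart from this rule, Mvk, Lss, Msmo1 and Hsd17b7 are named for their segments. Coding sequences are from GENCODE M21 and promoter windows from RefSeq on GRCm38.p6, the assembly of mm10.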

Additional observations from a re-analysis of the deposited data

Results flagged for a closer look

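The 6 results here were singled out because the fraction ratio differed between vehicle and HHT slices by a direct test of that difference (edgeR). For heavy over input these were the shifts of Hmgcs1 (-1.03, adjusted p = 0.000443), Fdft1 (-1.51, adjusted p = 0.000323), Sqle (0.99, adjusted p = 0.0124) and Insig1 (0.70, adjusted p = 0.0242) on the log2 scale. For heavy over medium they were those of Hmgcs1 (-1.47, adjusted p = 2.37e-05) and Fdft1 (-0.92, adjusted p = 0.00456). In all 4 HHT lysates the heavy over input ratio of Hmgcs1 (at most 0.30) and Fdft1 (at most -0.45) lay below both vehicle lysates (1.11 and 0.72 at the lowest). For Sqle and Insig1 all 4 HHT lysates lay above both vehicle lysates. The same held for Sc5d and Srebf2, whose shifts were not called. Among all genes, 28.9% and 36.5% had a called shift of heavy over input and heavy over medium. No group was large enough for a search for single libraries that stand apart.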

How the results depend on the processing

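Of 126 values (7 genes in 18 comparisons), 41 were called. Of these, 32 kept direction and call under every alternative run, 9 missed the threshold under at least 1 and 0 changed direction. Of the 85 others, 16 passed under at least 1 alternative, and 34 changed sign under at least 1. The causes were not tested. Each vehicle group has 1 library, so HHT effects and vehicle ratios borrow their spread from the HHT groups. Fits with HHT replicate 1 or 2 alone assume 1 effect over genotypes. Depth limits Sc5d most, with 45.4 counts in WT vehicle heavy.

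The count of the 7 genes called moved by over 1.5 times in a few comparisons. HHT against vehicle in input went from 4 to 2 with limma on rescaled TPM at either pseudocount, and ran from 1 to 5 when replicates were left out. Medium over input under HHT went from 2 to between 1 and 2 and heavy over medium under HHT from 3 to between 1 and 4 when replicates were left out. Medium over input in vehicle went from 0 to 1 with limma at either pseudocount, to 1 with the replicate block, and to between 0 and 2 when replicates were left out. The medium over input shift went from 0 to 1 with limma at either pseudocount, to 3 with the replicate block, and to between 0 and 3 when replicates were left out.

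Between WT and KO, deviations of same-numbered HHT replicates had an r of 0.0033 in heavy, 0.17 in medium and 0.32 in input. Fractions of one lysate, which are paired, had an r of only 0.01 to 0.35. This r thus cannot decide whether the shared numbers pair the samples. With the replicate number as a block, Insig1 in input (0.38, adjusted p = 0.0412) and Fdft1 in medium (-0.30, adjusted p = 0.0441) passed for HHT against vehicle, and no call of the 7 genes between genotypes changed. The lysate block changed no other call than those given with the ratios and shifts.

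Over all genes, HHT against vehicle in input called 1732, and 963 or 984 with limma, 1143 without KO HHT replicate 1 and 3200 with HHT replicate 1 alone. Medium over input under HHT called 4245, and 1626 or 1261 without WT or KO HHT replicate 2. Heavy over medium under HHT called 5002, and 2513 or 2391 likewise. Medium over input in vehicle called 2755, and 4385 or 5742 with HHT replicate 2 or 1 alone. The medium over input shift called 2415, 1309 or 1007 without WT or KO HHT replicate 2, and 4241 or 3813 with HHT replicate 2 or 1 alone. KO against WT in input called 0, 4 with DESeq2, 2 with limma, 2 without KO HHT replicate 1 and 3 with the replicate block. Library totals moved the share of called genes that were higher from 98.3% to 85.8% for HHT against vehicle in input, from 47.6% to 28.1% and 53.4% to 25.3% for heavy over input under HHT and vehicle, from 52.9% to 27.5% and 48% to 31.4% for heavy over medium, from 44% to 33.2% and 51.8% to 40.5% for medium over input, and from 43.6% to 60.4% and 49.6% to 62.7% for the heavy over input and heavy over medium shifts. They moved the median log2 value of all genes to -0.11 for HHT against vehicle in input, -0.28 and -0.41 for heavy over input, -0.20 and -0.42 for heavy over medium, and 0.16 and 0.28 for those shifts.

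The values that changed sign were all uncalled in every fit where they did. Hmgcs1 under HHT in input was -0.025 with DESeq2 and RLE factors, -0.076 with library totals, -0.085 with limma (either pseudocount), and ran from -0.040 to 0.059 when replicates were left out. With library totals, Fdft1 between genotypes in input was -0.0099, the Hmgcs1 interaction in heavy -0.0025, Dhcr7 medium over input under HHT -0.058, Hmgcs1 heavy over input under HHT -0.15, and Dhcr7 in vehicle -0.30 for heavy over input and -0.0061 for heavy over medium. With limma at either pseudocount, Fdft1 between genotypes in input was -0.032, Hmgcs1 between genotypes in medium -0.0011, the interactions of Fdft1 in input -0.022, of Insig1 in medium -0.057 and -0.059 and of Hmgcs1 in heavy -0.016, and Insig1 medium over input under HHT 0.031 and 0.032. In vehicle, limma gave -0.061 and -0.062 for Sqle and -0.053 and -0.054 for Srebf2 in medium over input and -0.18 for Dhcr7 in heavy over input. DESeq2 and RLE factors gave 0.049 for Sqle heavy over input in vehicle, and -0.0056 and -0.0052 for the Dhcr7 heavy over medium shift.

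When replicates were left out, differences between genotypes in input ran from -0.28 to 0.33 for Sqle, -0.27 to 0.28 for Fdft1, -0.085 to 0.059 for Insig1 and -0.19 to 0.52 for Dhcr7. In medium they ran from -0.015 to 0.095 for Hmgcs1, -0.14 to 0.12 for Sqle, -0.087 to 0.28 for Srebf2, -0.32 to 0.25 for Dhcr7 and -0.12 to 0.29 for Sc5d. In heavy they ran from -0.043 to 0.17 for Hmgcs1, -0.0073 to 0.11 for Fdft1, -0.090 to 0.053 for Srebf2 and -0.23 to 0.34 for Sc5d. Interactions in input ran from -0.56 to 0.053 for Sqle, -0.28 to 0.28 for Fdft1, -0.13 to 0.0011 for Insig1 and -0.23 to 0.33 for Srebf2. In medium they ran from -0.085 to 0.025 for Hmgcs1, -0.017 to 0.099 for Insig1 and -0.32 to 0.049 for Srebf2, and in heavy from -0.090 to 0.12 for Hmgcs1 and -0.26 to 0.18 for Insig1. Under HHT, medium over input of Dhcr7 ran from -0.017 to 0.058, and Hmgcs1 from -0.0072 to 0.18 for heavy over input and from -0.042 to 0.011 for heavy over medium. The shifts ran from -0.031 to 0.090 for Srebf2 in medium over input and from -0.016 to 0.28 for Dhcr7 in heavy over medium.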

Other observations

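Fatty acid genes under SREBP control and genes that export or turn over cholesterol were counted in the same comparisons. Of 10 fatty acid genes, 3 rose and 0 fell under HHT in input, 8 rose and 0 fell in medium, and 6 rose and 3 fell in heavy polysomes, with median log2 changes of 0.20, 0.81 and 0.75. In heavy polysomes the desaturases Scd1 (1.17 ± 0.13) and Scd2 (1.58 ± 0.22) and the elongase Elovl6 (1.83 ± 0.21) rose, and Acss2, the cytosolic acetyl-CoA synthetase, fell by 1.27 ± 0.14 (edgeR adjusted p at most 5.96e-05 for all 4). In input the desaturases Fads1 (0.93 ± 0.13), Scd2 (0.99 ± 0.22) and Fads2 (0.79 ± 0.19) rose. Of 7 genes of sterol export and turnover, 2 rose and 0 fell in input, 4 rose and 2 fell in medium, and 5 rose and 0 fell in heavy polysomes. Cyp46a1, the neuronal cholesterol 24-hydroxylase, rose in all 3 fractions, by 1.23 ± 0.16 in input, 1.17 ± 0.17 in medium and 1.33 ± 0.17 in heavy. Abcg1, a sterol transporter, rose by 0.76 ± 0.16, 1.26 ± 0.17 and 0.70 ± 0.16. Over all genes, 12.2%, 25.4% and 27.1% rose and 0.215%, 21.5% and 24.7% fell in input, medium and heavy.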
